A study of Homo sapiens with 145 samples.

Results

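The genes described here are 10 targets of the cell's response to low oxygen, most of them working in or around glycolysis: CA12, ALDOC, VEGFA, PDK1, HK2, SLC2A1, SLC2A3, DDIT4, BNIP3 and PGK1. They were taken by their symbol in the array platform's annotation, and each was read from the probe set that was brightest on average. All 10 of them passed the filter on low signal, among 12070 genes tested. They were measured in HT-1080, an established human fibrosarcoma line grown in 24-well plates in an incubator with ordinary air; low oxygen was not one of the treatments. The exposure lasted 24 h. Some wells received etoposide (ETP), a drug that traps topoisomerase II on cut DNA, at 0.003, 0.01, 0.03, 0.1, 0.3, 1 and 3 µM. Other wells received methyl methanesulfonate (MMS), which methylates DNA, at 1, 3, 10, 30, 100, 300 and 500 µM, or quercetin (QUE), a plant flavonol, at 1, 3, 10, 30, 60, 80 and 100 µM. Each chemical had its own vehicle group in DMSO (dimethyl sulfoxide), and DMSO at 0.1% was present in all dosed wells too. The labels name no separate cultures behind the replicate numbers, so p-values measure the spread between these samples, which may be technical.

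The table held 145 Affymetrix arrays. Values are log2 probe set summaries, and a change of 1 on that scale is a doubling or halving. Per group there were 5 samples for etoposide and quercetin and 6 for MMS, with 5 at 500 µM MMS. An etoposide and a quercetin sample that each had a repeat array entered as the mean of both. The 8 etoposide and 8 quercetin arrays numbered 2 were left out because they went against their labels. The response on the array labelled etoposide 3 µM number 2 correlated across genes at 0.90 with the quercetin response and at 0.30 with the etoposide response, and that on the array labelled quercetin 100 µM number 2 at 0.89 with etoposide and 0.39 with quercetin. The quercetin samples numbered 3 were kept but also stood apart. Their responses correlated with the mean of the other numbers at 0.52 at 80 µM and 0.55 at 100 µM, against 0.71 to 0.86 and 0.73 to 0.93 for the others. Array medians ran from 3.51 to 3.59 for etoposide, 3.08 to 3.17 for MMS and 3.33 to 3.41 for quercetin, so levels were not set against each other across chemicals. The 4 mesenchymal markers were above 4 in every group, and the 4 epithelial and 4 blood markers on the array were below 4 in every group, as were 2 of 3 endothelial markers (the third reached 4.01). CDKN1A, the cyclin-dependent kinase inhibitor induced by DNA damage, rose by 1.83 ± 0.09 (SE) at 3 µM etoposide, 1.41 ± 0.10 at 500 µM MMS and 1.29 ± 0.14 at 100 µM quercetin.

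Hypoxia-inducible factor (HIF) is a transcription factor whose alpha subunit is marked for destruction when oxygen is plentiful and accumulates when it is scarce. It binds a short core sequence near its target genes and raises glucose uptake, glycolysis, growth of blood vessels and control of pH, while slowing the entry of pyruvate into mitochondria. Many tumour lines express these targets in normal air as well, and other factors, among them the stress factor ATF4, also act on some of them. In bulk RNA a lower value can come from fewer cells that carry the transcript or from less of it per cell, and these cannot be told apart here.

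The promoters of CA12, ALDOC and DDIT4, the members with the largest falls in these data, are shown as the 250 bases before the gene start in RefSeq's GRCh38.p14, 5′ to 3′ on the gene's strand. Capitals mark the core sequences bound by HIF, ACGTG and GCGTG, on either strand (read on the other strand as CACGT and CACGC). A palindrome CACGTG counts as 1 match to ACGTG on each strand.
CA12, chr15:63381847-63382096, minus strand: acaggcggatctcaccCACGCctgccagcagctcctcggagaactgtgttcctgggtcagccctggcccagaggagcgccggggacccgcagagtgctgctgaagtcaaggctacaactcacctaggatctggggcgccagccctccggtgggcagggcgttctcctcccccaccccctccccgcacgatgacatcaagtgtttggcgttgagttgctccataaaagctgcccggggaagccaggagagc
ALDOC, chr17:28576896-28577145, minus strand: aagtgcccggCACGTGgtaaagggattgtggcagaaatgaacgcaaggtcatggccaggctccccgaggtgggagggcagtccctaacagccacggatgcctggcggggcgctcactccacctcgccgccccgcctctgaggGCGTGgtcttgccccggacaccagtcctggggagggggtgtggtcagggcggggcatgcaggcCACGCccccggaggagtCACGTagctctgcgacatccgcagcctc
DDIT4, chr10:72273674-72273923, plus strand: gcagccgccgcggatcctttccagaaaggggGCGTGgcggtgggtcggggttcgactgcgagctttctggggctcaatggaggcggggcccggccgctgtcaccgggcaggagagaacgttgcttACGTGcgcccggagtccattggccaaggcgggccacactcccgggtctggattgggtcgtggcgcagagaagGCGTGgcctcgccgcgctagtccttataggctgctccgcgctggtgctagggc
CA12 held 0 matches to ACGTG and 1 to GCGTG. ALDOC held 3 and 2, with 1 palindrome, and its nearest match began 28 bases before the start. DDIT4 held 1 and 2. Of the 10 members, 8 had a promoter in the table, 7 of which held at least 1 of the cores in a window (HK2 and PDK1 have 2 windows each), against 43.2% of all 35116 promoter windows of that length. ACGTG was in 6 of the 8 members against 18.5% of windows, and GCGTG in 6 of 8 against 32.2%. The members were listed as targets of the low-oxygen response, so setting them beside all windows is not a test. HK2 and PDK1 counted if either window held a core, while the background counts single windows. The first PDK1 window, before the gene start, held 0 cores. SLC2A1 held neither. A match is a string of letters and not a measured binding site.

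Members were lower in MMS-treated cells at the upper doses. At 500 µM, 9 of the 10 were called lower, where a call is an adjusted p under 0.05 (limma, Benjamini-Hochberg over all genes) with at least a 1.5-fold change. CA12 and ALDOC were 9.13 and 8.20 times lower, and DDIT4 7.38 times lower. Over all genes 34.6% were called at this dose and 16.9% were called lower, and 0 members were called higher. All dosed samples lay below all vehicle samples for 9 of the 10 members and for 17.6% of all genes. The median change of the members was -1.45, and that of all genes was 0.05. At 1, 3, 10 and 30 µM limma called 0 members, with 0 at an unadjusted p under 0.05 and 0% of all genes called. At 30 µM the estimates of all 10 members were negative, with a median of -0.10 against 0.01 for all genes. CA12 was at -0.36 there, each sample below the vehicle sample of its number. It was not called, and its lowest limma adjusted p over the alternatives tried was 0.9998. The share of all genes with such a paired direction was not counted. At 100 µM, 1 member (CA12) was called lower against 1.61% of genes called and 1.19% called lower. At 300 µM, 5 were called lower against 12.2% and 7.75%, and all 10 members had an adjusted p under 0.05, all in the lower direction.

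**Figure D1:**
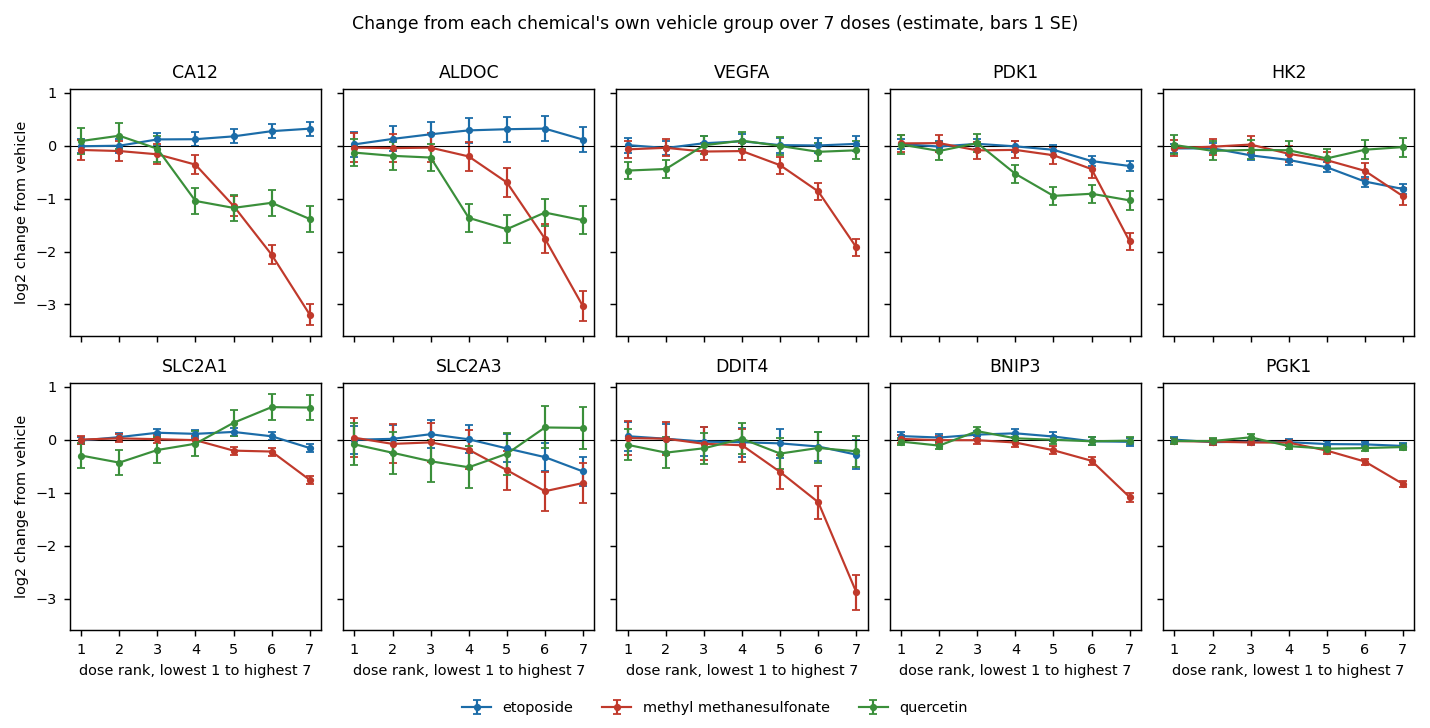
Log2 change from the chemical's own vehicle group (vertical axis, limma estimate, bars 1 SE) against dose rank (horizontal axis, 1 lowest to 7 highest) for each of the 10 genes, with etoposide in blue, MMS in red and quercetin in green. The MMS lines leave 0 mainly at the last 2 or 3 doses and end between -0.76 and -3.19, the quercetin lines of CA12, ALDOC and PDK1 are low from 30 or 60 µM on, and the clearest etoposide change is that of HK2.

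Among the secreted and surface proteins of the group, CA12 (chr15:63321378-63381846), a membrane carbonic anhydrase that helps tumour cells export acid, was the first to be called under MMS. Its vehicle samples had a lowest value of 7.10, a median of 7.18 and a highest of 7.55. At 100 µM the lowest, median and highest were 5.97, 6.08 and 6.32. At 500 µM the 5 samples were at 4.03, 4.28, 3.96, 4.00 and 4.01. No dosed sample at any of the 3 upper doses reached the lowest vehicle value. Of all genes 1.71%, 8.09% and 17.6% were separated in this way at 100, 300 and 500 µM. CA12 was lower by 1.14 ± 0.19 at 100 µM (adjusted p = 7.71e-05), and the estimates were -2.06 ± 0.19 at 300 µM (5.45e-12) and -3.19 ± 0.19 at 500 µM (2.16e-18). At 500 µM it lay at the filter level of 4, so the full size of the fall is uncertain, and at 300 µM number 5 stood at 3.70 and number 6 at 4.82 while the other 4 lay between 5.48 and 5.79.

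VEGFA (chr6:43770211-43786487), the growth factor that draws blood vessels into poorly supplied tissue, was lowest at the last dose. Its vehicle samples had a lowest value of 11.05, a median of 11.21 and a highest of 11.81. At 500 µM the samples were at 9.40, 9.39, 8.48, 10.00 and 9.54, all below every vehicle sample. VEGFA fell by 0.86 ± 0.16 at 300 µM (adjusted p = 3.08e-05) and by 1.92 ± 0.17 at 500 µM (1.84e-13). Its 3 other probe sets were called lower as well at 500 µM, by 1.81 to 2.37.

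At 500 µM the estimates for both glucose transporters were below 1 log2 unit. SLC2A1 (GLUT1, chr1:42925353-42958868), the basal glucose carrier of most cells, fell by 0.76 ± 0.08 at 500 µM (adjusted p = 3.76e-11), where its samples ran from 7.49 to 8.05 against 8.47 to 8.65 in the vehicle. At 300 µM it was at -0.22 ± 0.08, under the 1.5-fold limit. Its second probe set, close to the filter level with a mean of 4.12 over all arrays, gave -0.37 at 500 µM (adjusted p = 0.086) and was not called, and the mean of both was at -0.56, under the fold limit. SLC2A3 (GLUT3, chr12:7919230-7936187), a high-affinity glucose carrier, was called lower at 300 µM at -0.97 ± 0.37 (adjusted p = 0.0344) and was not called at 500 µM, where it was at -0.82 ± 0.39 (0.0643). Its vehicle samples ran from 7.38 to 9.15 and its samples at 500 µM from 6.63 to 8.06, so the groups overlapped. In the fit that ignores the replicate numbers, the 300 µM call was lost when any one of 6 samples was left out (300 µM numbers 1, 2, 3 and 6 and vehicle numbers 5 and 6), with changes of -0.75 to -0.97 and adjusted p of 0.0505 to 0.125. The 500 µM value passed when 500 µM number 5 (-1.03), vehicle number 1 (-0.92) or vehicle number 2 (-0.95) was left out, and in the fit of that dose and its vehicle alone (-0.82, 0.0330). The samples followed their number: vehicle numbers 1 to 6 were at 7.52, 7.38, 7.76, 8.01, 9.15 and 8.40, and the same numbers at 300 µM were at 6.68, 6.26, 7.03, 7.02, 8.35 and 7.05. At 500 µM numbers 2 to 6 were at 6.63, 6.69, 7.30, 8.06 and 7.42. Every dosed sample at 300 and 500 µM was below the vehicle sample of its number, and with the number as a block SLC2A3 was called lower at 300 µM (-0.97, adjusted p = 6.91e-12).

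Among the glycolytic enzymes, ALDOC (chr17:28573120-28576895), the aldolase isoform best known from brain, fell furthest. Its vehicle samples had a lowest value of 8.31, a median of 8.76 and a highest of 9.84. At 500 µM the samples were at 5.34, 5.50, 6.36, 6.10 and 5.85, so even the highest of them was clear of the vehicle group. The change of ALDOC was -1.76 ± 0.27 at 300 µM (adjusted p = 1.43e-06) and -3.04 ± 0.28 at 500 µM (1.41e-12). HK2 (chr2:74834127-74893359), the hexokinase that starts glycolysis in many tumours, fell by 0.95 ± 0.16 at 500 µM (1.81e-06), with samples of 7.60 to 8.51 against 8.81 to 9.50. Its second probe set went the other way at 0.19 (adjusted p = 0.532), so the 2 probe sets of HK2 disagree, and their mean was at -0.38, under the fold limit. PGK1 (chrX:78104248-78129295), which makes the first ATP of glycolysis, fell by 0.83 ± 0.06 (2.20e-16) from 12.31 to 12.61 in the vehicle to 11.49 to 11.88, and its 5 other probe sets were all called lower, by 1.17 to 1.45.

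PDK1 (chr2:172555373-172724312), the kinase that shuts pyruvate dehydrogenase and so keeps pyruvate out of the mitochondria, was at -0.44 ± 0.16 at 300 µM and fell by 1.81 ± 0.17 at 500 µM (adjusted p = 1.04e-12). The vehicle samples had a lowest value of 8.47, a median of 8.68 and a highest of 9.17, and those at 500 µM were at 6.64, 6.94, 6.42, 7.21 and 7.46. The groups were separated by about 1 log2 unit, and most of the fall came in the last dose step.

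Both stress-response members fell at 500 µM. DDIT4 (REDD1, chr10:72273924-72276036), which switches off the growth kinase complex mTORC1 under low oxygen or low energy, had vehicle samples with a lowest value of 7.84, a median of 8.58 and a highest of 9.44. At 500 µM they were at 4.88, 5.67, 5.35, 6.76 and 6.26. All 5 were below the vehicle group. DDIT4 fell by 1.18 ± 0.31 at 300 µM (adjusted p = 0.00269), where the groups overlapped by a narrow margin, and by 2.88 ± 0.33 at 500 µM (3.18e-10). BNIP3 (chr10:131967684-131981923), a mitochondrial protein that marks mitochondria for autophagy, had vehicle samples with a lowest value of 11.62, a median of 11.73 and a highest of 11.90. At 500 µM the samples were at 10.35, 10.71, 10.56, 10.71 and 10.89, again all below. BNIP3 fell by 1.08 ± 0.08 (4.25e-15).

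**Figure D2:**
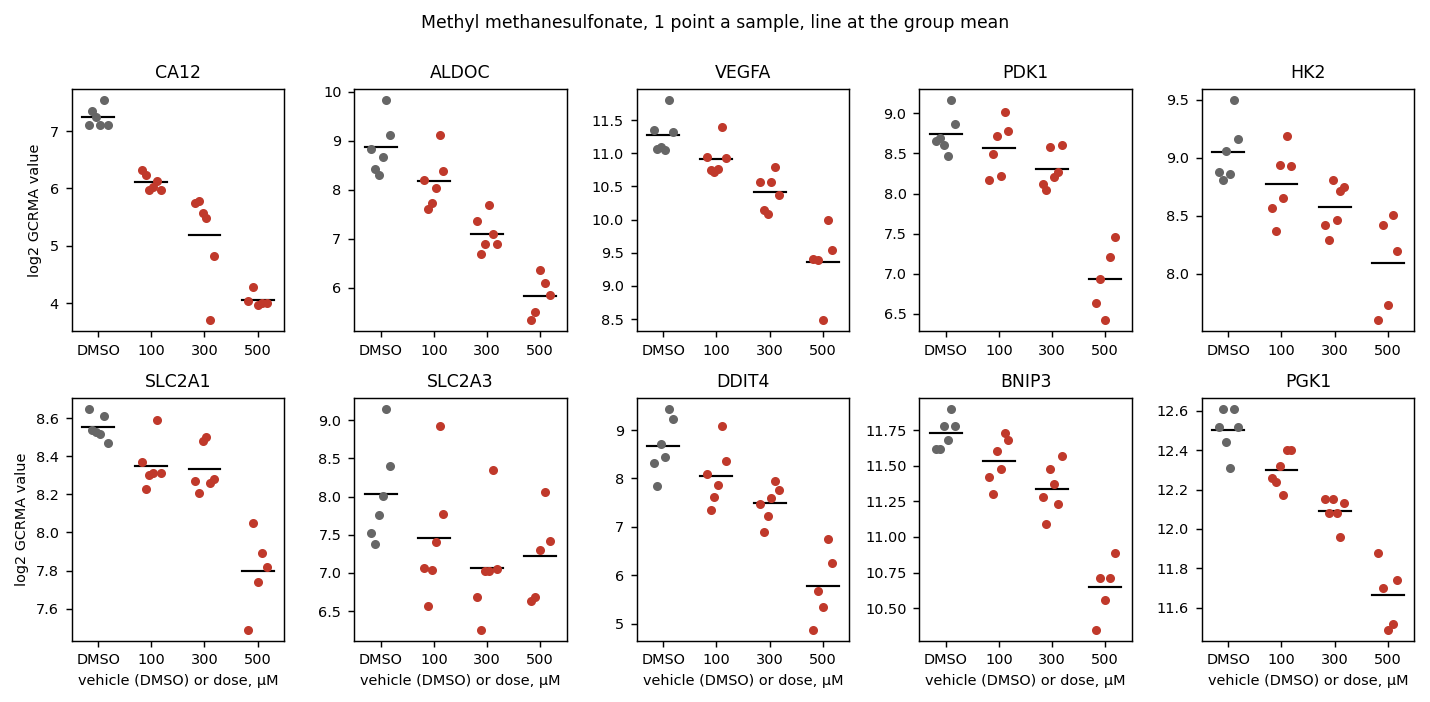
Log2 GCRMA value of every sample (points, 6 a group and 5 at 500 µM) for the 10 genes in the MMS vehicle group (grey) and at 100, 300 and 500 µM (red), with a line at the group mean; each panel has its own vertical axis. At 500 µM the points of 9 genes lie wholly below the vehicle points, and those of SLC2A3 overlap them.

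Replicate numbers paired the MMS samples at 1 to 300 µM, since each dosed sample deviated from its group mean together with the vehicle sample of its number (lowest correlation across genes 0.25). With the number as a block in the fit, 3 members rather than 1 were called at 100 µM: ALDOC at -0.69 (adjusted p = 6.70e-05) and DDIT4 at -0.61 (3.88e-06) joined CA12. Without the block ALDOC was called at 100 µM only when number 5 of that dose was left out (-0.88, adjusted p = 0.0479). The step from 300 to 500 µM was tested directly. In that contrast 6 members were called lower and 0 higher, against 18.7% of all genes called and 10.5% called lower. DDIT4 fell by a further 1.70 ± 0.33 (adjusted p = 3.79e-05), PDK1 by 1.37 ± 0.17 (7.33e-09), ALDOC by 1.28 ± 0.28 (0.000252), CA12 by 1.13 ± 0.19 (5.78e-06), VEGFA by 1.06 ± 0.17 (1.40e-06) and BNIP3 by 0.69 ± 0.08 (6.16e-09). SLC2A1 (-0.54), HK2 (-0.48) and PGK1 (-0.42) had an adjusted p under 0.05 but stayed under 1.5-fold, and SLC2A3 was at 0.16 ± 0.39. SLC2A1 passed without 500 µM number 3 (-0.60) and HK2 without 500 µM number 5 (-0.59).

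Quercetin gave another pattern: 3 members were lower from 30 or 60 µM on, 1 glucose transporter was higher at 80 and 100 µM, and the remaining members were called at no dose. Limma called 0 members at 1, 3 and 10 µM, where 0.0331%, 0.0911% and 1.78% of all genes were called (0.0249%, 0.0663% and 0.671% lower) and 1 member at each dose had an unadjusted p under 0.05. At 30 µM, 2 members were called, both lower, against 17.0% of genes called and 8.64% called lower. At 60 µM, 3 were called lower against 25.4% and 12.7%. At 80 µM, 3 were lower and 1 higher, against 24.5% called, 13.1% lower and 11.4% higher. At 100 µM, 3 were lower and 1 higher, against 27.6% called, 14.5% lower and 13.1% higher. These counts are near what the share of all genes gives for 10 genes, and the median change of the members at 100 µM was -0.11 against 0.00 for all genes.

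CA12 fell by 1.04 ± 0.25 at 30 µM (adjusted p = 0.00119) and by 1.38 ± 0.25 at 100 µM (2.08e-05), which is 2.61-fold. Its vehicle samples were at 7.68, 7.75, 8.32, 7.85 and 7.71, and those at 100 µM at 7.24, 6.78, 5.91, 6.02 and 6.44. The dosed samples were all lower, as was so for 13.6% of all genes, and spread over more than 1 log2 unit. Its 4 other probe sets were called lower too, by 1.01 to 1.24.

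ALDOC fell by 1.36 ± 0.26 at 30 µM (adjusted p = 9.62e-05), by 1.58 ± 0.26 at 60 µM (6.71e-06) and by 1.41 ± 0.26 at 100 µM (3.13e-05). The vehicle samples were at 8.44, 9.37, 9.75, 9.31 and 9.08, and those at 100 µM at 6.99, 8.41, 8.11, 7.66 and 7.74. The groups only just failed to overlap, and at 80 µM (-1.26 ± 0.26) they did overlap. Number 1 was the lowest sample in the vehicle and at 100 µM alike.

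PDK1 was at -0.53 ± 0.17 at 30 µM, under the fold limit, and fell by 0.95 ± 0.17 at 60 µM (adjusted p = 3.39e-05) and 1.03 ± 0.17 at 100 µM (8.64e-06). Its vehicle samples were at 9.35, 9.20, 9.46, 9.46 and 9.37, and at 100 µM they were at 8.84, 8.58, 7.95, 8.10 and 8.21. Every dosed sample was below the vehicle group. At 100 µM that was so for 3 of the 10 members and for 13.6% of all genes. At 30 µM PDK1 passed the fold limit when number 1 or number 5 of that dose was left out (both -0.60). For the step from 30 to 100 µM limma called 0 members, with 3.92% of all genes called. PDK1 was at -0.50 ± 0.17 there (adjusted p = 0.0620, 95% interval -0.86 to -0.15), and passed without 100 µM number 1 (-0.63), without 30 µM number 3 (-0.67) or without all samples numbered 3 (-0.73 ± 0.15, adjusted p = 0.00124). SLC2A1 was at 0.68 ± 0.24 in that step (0.0645), and passed without 100 µM number 1 (0.77). Without all samples numbered 3 it was at 0.38 ± 0.11 (adjusted p = 0.0123), under the fold limit.

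SLC2A1 was higher by 0.62 ± 0.24 at 80 µM (adjusted p = 0.0340) and by 0.61 ± 0.24 at 100 µM (0.0334), and 1 sample number carried most of this. The vehicle samples were at 9.01, 8.81, 9.02, 8.97 and 9.08. At 100 µM they were at 9.24, 10.82, 9.36, 9.25 and 9.26, where 10.82 is number 3. All 5 samples at 100 µM were above the vehicle group, as was so for 1697 of all 12070 genes, while those at 80 µM overlapped it. With the quercetin samples numbered 3 left out of every group, SLC2A1 was at 0.28 ± 0.11 at 80 µM (adjusted p = 0.0274) and 0.26 ± 0.11 at 100 µM (0.0384), under the fold limit and no longer a call. Leaving out 1 sample at a time, the call was lost at 100 µM without number 3 of that dose (0.30, adjusted p = 0.220), without vehicle number 3 (0.57) or without vehicle number 5 (0.61, adjusted p = 0.0527), and at 80 µM also without number 4 of that dose (0.58). It was lost at both doses when the dose and its vehicle were fitted alone (adjusted p = 0.104 and 0.0857). The second SLC2A1 probe set was called higher at 0.65, from a level near the filter limit. At the low doses of 1 and 3 µM SLC2A1 was below its vehicle, at -0.30 and -0.43, and was not called. Its samples at 3 µM (8.18 to 8.69) were all below the vehicle group, as was so for 1.03% of all genes. Without number 3 the change at 3 µM was -0.38 ± 0.11 (adjusted p = 0.232).

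The same number stood out in SLC2A3 and HK2. At 100 µM SLC2A3 was at 7.77, 10.62, 8.87, 8.65 and 8.81, and HK2 at 9.24, 10.19, 9.20, 9.01 and 9.14, with number 3 in the second place of each. At 80 µM number 3 was at 10.55 for SLC2A3 and 10.13 for HK2. Number 4 came next at that dose, at 9.61 for SLC2A3, 9.47 for HK2 and 9.76 for SLC2A1. Numbers 1, 5 and 6 there were at 8.00 to 8.43, 8.87 to 9.14 and 9.06 to 9.27. SLC2A3 was at 0.23 ± 0.40 over all 5 samples at 100 µM and at -0.20 ± 0.34 without the number, and HK2 at -0.02 ± 0.18 and -0.30 ± 0.11, so both estimates changed sign or size with that number and were called in neither fit. CA12, ALDOC and PDK1 kept their calls without number 3, at -1.49 ± 0.28, -1.52 ± 0.29 and -1.13 ± 0.15 at 100 µM. What sets number 3 apart was not tested.

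**Figure D3:**
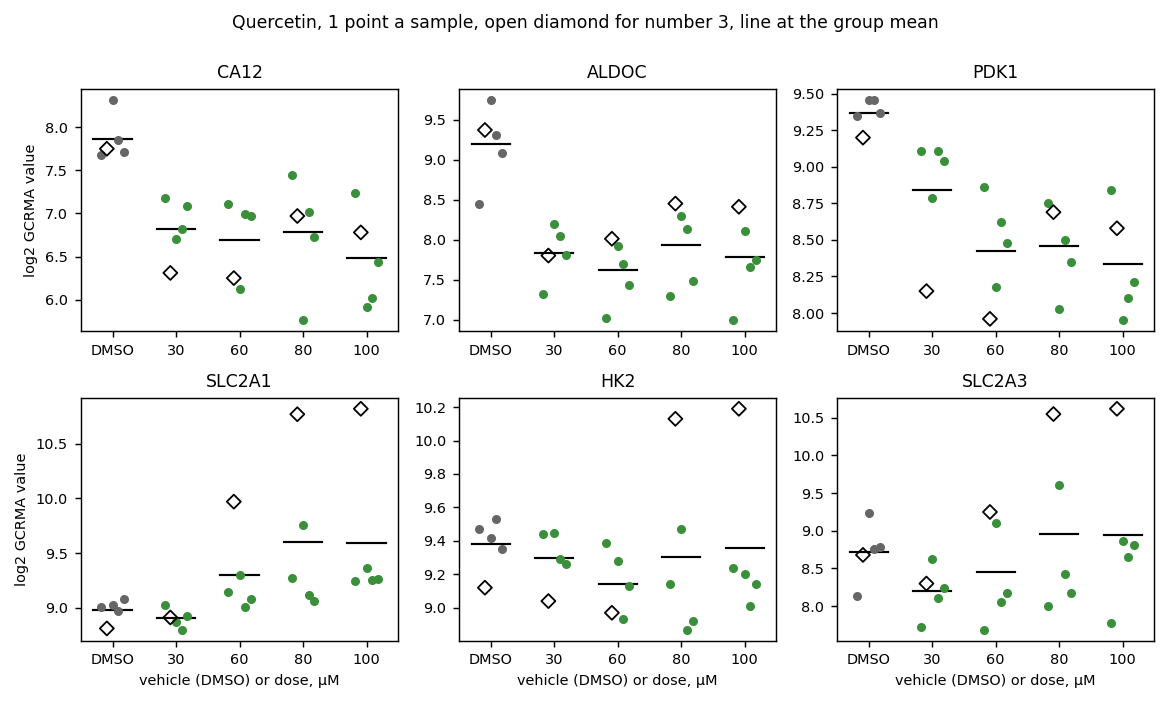
Log2 GCRMA value of every sample for 6 genes in the quercetin vehicle group (grey points) and at 30, 60, 80 and 100 µM (green points), with 5 samples a group, a line at the group mean and an open diamond for the sample numbered 3; each panel has its own vertical axis. CA12, ALDOC and PDK1 are low at each dose shown, while for SLC2A1, HK2 and SLC2A3 the diamond is the highest point at 80 and 100 µM.

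The other 4 members were called at no quercetin dose. A limma F-test over the 7 doses together gave adjusted p of 0.0178 for VEGFA and 0.00888 for PGK1. It gave 0.0829 for BNIP3 and 0.980 for DDIT4, and 56.8% of all genes were under 0.05 in it. At 100 µM VEGFA was at -0.08 ± 0.17 (95% interval -0.42 to 0.25), DDIT4 at -0.22 ± 0.29 (-0.81 to 0.38), BNIP3 at -0.02 ± 0.07 (-0.16 to 0.13) and PGK1 at -0.14 ± 0.06 (-0.26 to -0.01). For these probe sets the intervals of VEGFA, BNIP3 and PGK1 lie above a 1.5-fold fall, which is -0.58, and that of DDIT4 does not. The 5 other PGK1 probe sets had larger changes, -0.30 to -0.68, and 1 of them was called lower (-0.68, adjusted p = 0.0231). Those at -0.30, -0.33 and -0.42 had adjusted p of 0.00612, 0.00521 and 0.000472 but were under the fold limit. VEGFA's lowest estimates were at the bottom of the dose range, -0.47 ± 0.17 at 1 µM and -0.44 ± 0.17 at 3 µM, neither past the adjusted threshold. One of its 3 other probe sets was called higher at 100 µM at 0.80 (adjusted p = 0.0332), and the second HK2 probe set was called lower at -1.08 (0.0102), so these genes' probe sets disagree. With its probe sets averaged, HK2 was called lower at 60 µM (-0.68) and 80 µM (-0.66).

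With the arrays numbered 2 kept in the fit, the quercetin changes of CA12, ALDOC, PDK1 and SLC2A1 were smaller at 80 and 100 µM. CA12 was then at -0.82 at 30 µM (adjusted p = 0.0953) and -0.85 at 80 µM (0.0633), not called, and at -1.09 at 100 µM (0.0151), called. SLC2A1 was at 0.54 at 80 µM (0.0503) and 0.48 at 100 µM (0.0785), not called. ALDOC and PDK1 stayed called at 100 µM, at -1.18 and -0.94. The array labelled quercetin 100 µM number 2 read 8.64 for CA12 and 9.58 for ALDOC beside 8.23 and 9.63 in its vehicle array, and the array labelled etoposide 3 µM number 2 read 5.97 and 7.48 beside 8.61 and 9.83.

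Under etoposide few members were called. Limma called 0 members up to 0.3 µM, while 0%, 0%, 0.630%, 3.74% and 4.56% of all genes were called at the 5 doses in rising order. At 0.1 µM 2.36% of genes were called lower, and at 0.3 µM 3.02% were called higher. Of the members 0, 0, 0, 1 and 1 had an unadjusted p under 0.05. At 1 and 3 µM, 1 member was called lower, HK2, against 8.90% and 13.2% of genes called, 3.73% and 6.92% called lower, and 5.17% and 6.25% called higher. These counts are near what the share of all genes gives for 10 genes.

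HK2 was lower at each successive dose from 0.1 µM up. The vehicle samples were at 9.63, 9.20, 9.58, 9.50 and 9.48, those at 1 µM at 8.70, 9.03, 8.81, 8.73 and 8.75, and those at 3 µM at 8.54, 8.77, 8.89, 8.56 and 8.55. All samples at 1 and 3 µM were below the vehicle group, as was so for 7.32% and 11.9% of all genes. HK2 was at -0.27 ± 0.09 at 0.1 µM (adjusted p = 0.0507) and -0.41 ± 0.09 at 0.3 µM (0.00179, under the fold limit), fell by 0.68 ± 0.09 at 1 µM (6.15e-07) and by 0.82 ± 0.09 at 3 µM (7.75e-09), a 1.76-fold difference. The second HK2 probe set, with a mean of 6.43 over all arrays against 9.13, was at -0.06 (0.790), and with both averaged HK2 was at -0.43 and -0.44 at these doses, under the fold limit.

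SLC2A3 was at -0.60 ± 0.27 at 3 µM (adjusted p = 0.0693). Replicate numbers paired the etoposide samples at each dose (lowest correlation 0.16), and with the number as a block SLC2A3 was called lower at 3 µM (-0.60, adjusted p = 3.13e-06), which makes 2 members. Its samples overlapped, from 7.85 to 8.83 against 8.31 to 9.58 in the vehicle. It passed without the block when 3 µM number 3 (-0.71), 3 µM number 4 (-0.72) or vehicle number 1 (-0.76) was left out. PDK1 (-0.38 ± 0.10, 0.00197) and CA12 (0.32 ± 0.13, 0.0435) had an adjusted p under 0.05 at 3 µM with 1.30-fold and 1.25-fold differences, under the limit. CA12 was at -0.17 with the arrays numbered 2 kept. The other 6 members lay between -0.28 and 0.12 at 3 µM. Over the alternatives tried, the lowest limma adjusted p at 3 µM was 1.30e-05 for CA12, 0.00159 for DDIT4, 0.00584 for PGK1 and 0.0106 for SLC2A1. Their changes stayed under the fold limit. ALDOC was higher at the doses below, at 0.29, 0.31 and 0.32 at 0.1, 0.3 and 1 µM, under the fold limit and not called. Every ALDOC sample at these doses was above the vehicle sample of its number, and the share of all genes for which this held was not counted. Over the alternatives tried, its change at 1 µM ran from -0.11 to 0.35 (adjusted p of 0.000702 to 0.857). In the step from 0.3 to 3 µM limma called 0 members against 3.67% of all genes, and 3 (HK2, PDK1 and SLC2A1) had an adjusted p under 0.05 at changes of -0.41, -0.31 and -0.30. With the number as a block, SLC2A3 (-0.44, adjusted p = 0.000709), DDIT4 (-0.21, 0.0244) and ALDOC (-0.20, 0.0493) were under 0.05 as well. All stayed under the fold limit, and 0 members were called.

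**Figure D4:**
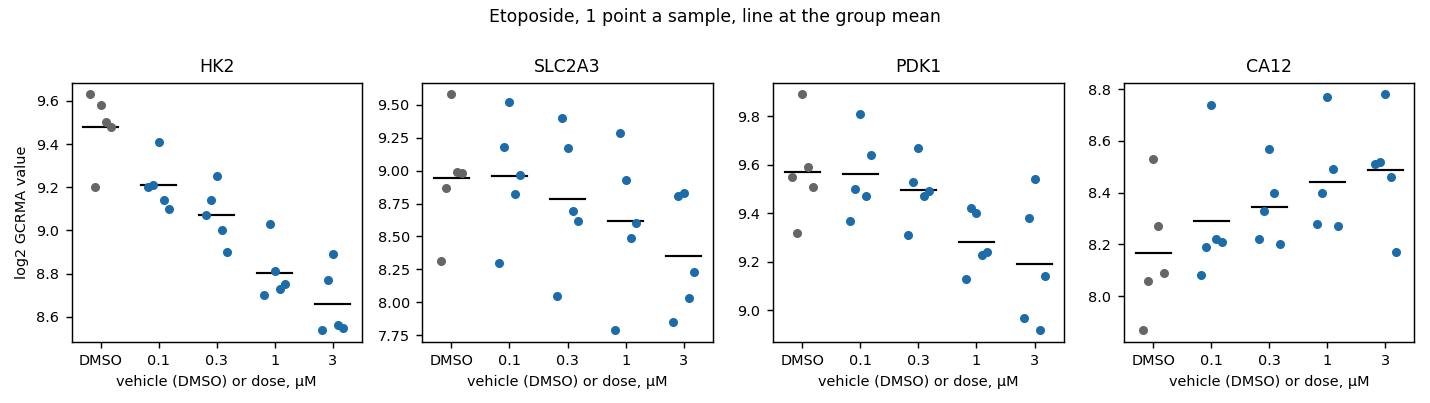
Log2 GCRMA value of every sample (points, 5 a group) for HK2, SLC2A3, PDK1 and CA12 in the etoposide vehicle group (grey) and at 0.1, 0.3, 1 and 3 µM (blue), with a line at the group mean; each panel has its own vertical axis. HK2 is the panel in which the 1 and 3 µM points lie wholly below the vehicle points.

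The differences between chemicals were tested as contrasts of the changes at the highest doses, in a fit over all groups. These doses were not matched for effect, so the contrasts compare 3 exposures and not 3 chemicals at equal strength. The change under etoposide was higher than that under MMS for 8 members and lower for 0, by 0.60 ± 0.21 (SLC2A1) to 3.51 ± 0.28 (CA12). Of all genes 30.5% were called in this contrast, both directions together. The 2 members not called there were HK2, with a difference of 0.14 (95% interval -0.29 to 0.57), and SLC2A3 (0.22, -0.81 to 1.25). The SLC2A1 difference was 0.37 (adjusted p = 0.161) with probe sets averaged, and the call was also lost without any one of 6 samples (etoposide 3 µM numbers 3 and 4, etoposide vehicle numbers 1 and 3, MMS 500 µM number 2 and MMS vehicle number 1), at 0.53 to 0.58. The change under MMS was lower than that under quercetin for 9 members and higher for 0, against 28.2% of genes called in both directions together. DDIT4 differed most, by -2.67 ± 0.44 (adjusted p = 2.72e-07), then VEGFA by -1.84 ± 0.23 (7.36e-11) and CA12 by -1.81 ± 0.28 (6.75e-08). HK2 was at -0.93 ± 0.22 (0.000231), but with its probe sets averaged the difference turned to 0.17 (0.423). SLC2A3 was at -1.04 ± 0.52 (0.0996), and passed without quercetin 100 µM number 1 (-1.33).

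Etoposide and quercetin differed for 5 members against 23.4% of genes called. CA12 (1.71 ± 0.29, adjusted p = 9.47e-07), ALDOC (1.52 ± 0.39, 0.00105) and PDK1 (0.65 ± 0.22, 0.0167) were higher under etoposide, and HK2 (-0.79 ± 0.22, 0.00283) and SLC2A1 (-0.77 ± 0.22, 0.00299) were lower. The HK2 and SLC2A1 differences rested on quercetin number 3: without it in all quercetin groups they were -0.52 (0.0293) and -0.42 (0.00489), under the fold limit, which leaves 3 members, and without the 100 µM sample alone they were -0.58 and -0.46. With probe sets averaged, PDK1 was at 0.39 (0.167) and HK2 turned to 0.12 (0.637). PDK1 was lost without etoposide 3 µM number 4 (0.56) or quercetin 100 µM number 4 (0.55). With the arrays numbered 2 kept, 0 members were called in this contrast. For VEGFA, DDIT4, BNIP3 and PGK1 the differences were 0.12 (95% interval -0.35 to 0.59), -0.06 (-0.95 to 0.83), -0.02 (-0.25 to 0.20) and 0.02 (-0.14 to 0.18).

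Other genes of the pathway were read from lists of the HIF machinery, glycolysis, further HIF targets and relatives of the members. Among 24 further HIF targets tested, 14 were lower and 1 higher at 500 µM MMS, with a median change of -0.92 against 0.05 for all genes. Over all genes 34.6% were called at this dose (16.9% lower, 17.7% higher), 27.6% at 100 µM quercetin (14.5% lower, 13.1% higher) and 13.2% at 3 µM etoposide (6.92% lower, 6.25% higher). TMEM45A, a transmembrane protein, was lower by 2.88 ± 0.22 to a mean of 3.41, under the filter level. LOX, the lysyl oxidase that crosslinks collagen, fell by 2.82 ± 0.14, and the change of VLDLR, a lipoprotein receptor, was -2.81 ± 0.23. At 100 µM quercetin the same list had 4 higher and 4 lower (5 and 2 without number 3) and a median of 0.20, with TMEM45A at 1.14 ± 0.19, INSIG2, a brake on sterol synthesis, at 0.88 ± 0.09 and NDRG1, a stress-induced growth suppressor, at 0.81 ± 0.24. TMEM45A was therefore lower under MMS and higher under quercetin. At 3 µM etoposide 2 were higher, the histone demethylase KDM4B (0.71 ± 0.07) and WSB1, an adaptor of a ubiquitin ligase (0.61 ± 0.15), 0 were lower and the median was -0.03. The etoposide count was 1 when 3 µM number 4, 3 µM number 6 or vehicle number 3 was left out.

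All 14 glycolytic enzymes listed beside the members were tested. At 500 µM MMS 5 were lower and 0 higher, against 16.9% of all genes lower, with a median of -0.49: PKM, the pyruvate kinase, fell by 1.57 ± 0.21, ENO2, an enolase, by 1.33 ± 0.22 and PFKL, a phosphofructokinase subunit, by 0.99 ± 0.14. Etoposide and quercetin each had 0 called, against 13.2% and 27.6% of all genes, with medians of -0.10 and -0.20. Quercetin had 1 lower (PFKM) without number 3, and 1 when 100 µM number 3 or vehicle number 5 alone was left out. Of 8 regulators of glycolysis and lactate transporters tested, TIGAR, a phosphatase induced by p53 that slows glycolysis, was higher under each chemical, by 1.18 ± 0.11 under etoposide, 1.19 ± 0.12 under MMS and 1.16 ± 0.21 under quercetin. PDK3, a kinase of the same family as PDK1, was 2.83-fold lower under MMS (adjusted p = 6.45e-12) and 2.62-fold lower under quercetin (2.00e-06). PFKFB4, which makes the activator of phosphofructokinase, fell by 1.16 ± 0.17 and 0.61 ± 0.15. That gives 1 higher and 2 lower under MMS and the same counts under quercetin (1 and 1 without number 3), and 1 higher under etoposide. Of all genes 17.7% were higher and 16.9% lower under MMS, 13.1% and 14.5% under quercetin, and 6.25% higher under etoposide.

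Of 8 genes of the HIF machinery tested, 0 were called under etoposide, against 13.2% of all genes. Under MMS 2 were higher and 3 lower, against 34.6% of all genes called: HIF1AN, the asparagine hydroxylase that blocks HIF, rose by 1.11 ± 0.09, ARNT2, a partner of the alpha subunit, fell by 1.06 ± 0.15 and EPAS1, an alpha subunit, fell by 1.02 ± 0.15. Under quercetin EPAS1 was higher by 0.60 ± 0.20, where 13.1% of all genes were higher, and 2 (EPAS1 and HIF1AN) were higher without number 3. With single samples left out, this quercetin count ran from 0 to 2 (without 100 µM numbers 3 or 4 or vehicle numbers 1, 5 or 6), and the etoposide count from 0 to 1 (without 3 µM numbers 3 or 4 or vehicle numbers 3 or 5).

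Among relatives of VEGFA, 4 of 6 tested were lower under MMS, 2 under quercetin and 1 under etoposide, against 16.9%, 14.5% and 6.92% of all genes. With probe sets averaged, 1 was called under quercetin and 0 under etoposide, so the etoposide call of NRP2 was lost. NRP2 and NRP1, the neuropilins that act as co-receptors for VEGF, fell by 2.96 ± 0.21 and 2.60 ± 0.11 under MMS and by 1.55 ± 0.22 and 1.15 ± 0.17 under quercetin, and NRP2 fell by 0.91 ± 0.22 under etoposide. VEGFB was lower by 0.62 ± 0.14 under MMS, to a mean of 3.83, under the filter level. The MMS count was 2 without 500 µM number 6 or vehicle number 5. Without number 3, 3 were lower under quercetin. Of 2 carbonic anhydrases tested beside CA12, CA2, a cytosolic form, was higher under MMS (0.75 ± 0.19) and quercetin (0.90 ± 0.18). Of all genes 17.7% and 13.1% were called higher. The MMS samples of CA2 lay below the filter level at a mean of 3.77, and the MMS call was lost without 500 µM number 4.

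Of the 8 relatives of DDIT4 tested, 6 were not called under MMS, and the count called higher is near the share of all genes. Of 8 genes of the mTORC1 brake and of the ATF4 stress response, 2 were higher and 0 lower under MMS, against 17.7% of all genes higher, with a median of 0.58, while DDIT4 fell: SESN2, a sestrin that restrains mTORC1, was higher by 0.73 ± 0.20 and the transcription factor ATF4 by 0.66 ± 0.16. Under quercetin 4 were higher (5 without number 3) and 0 lower, against 13.1% of all genes higher, with a median of 0.77, led by SESN2 (1.65 ± 0.23), TRIB3, a pseudokinase of the stress response (1.43 ± 0.19), and DDIT3, the transcription factor CHOP (1.29 ± 0.33), while DDIT4 was at -0.22 ± 0.29. Under etoposide SESN2 was higher (0.92 ± 0.22) and ASNS, asparagine synthetase, lower (-1.26 ± 0.41), against 6.25% of all genes higher and 6.92% lower. The MMS count was 1 without vehicle number 2 and 4 without vehicle number 5, and the etoposide count was 1 without 3 µM number 3. With the arrays numbered 2 kept, WSB1 and ASNS were not called under etoposide, and EPAS1, PFKFB4 and ATF4 were not called under quercetin.

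**Figure D5:**
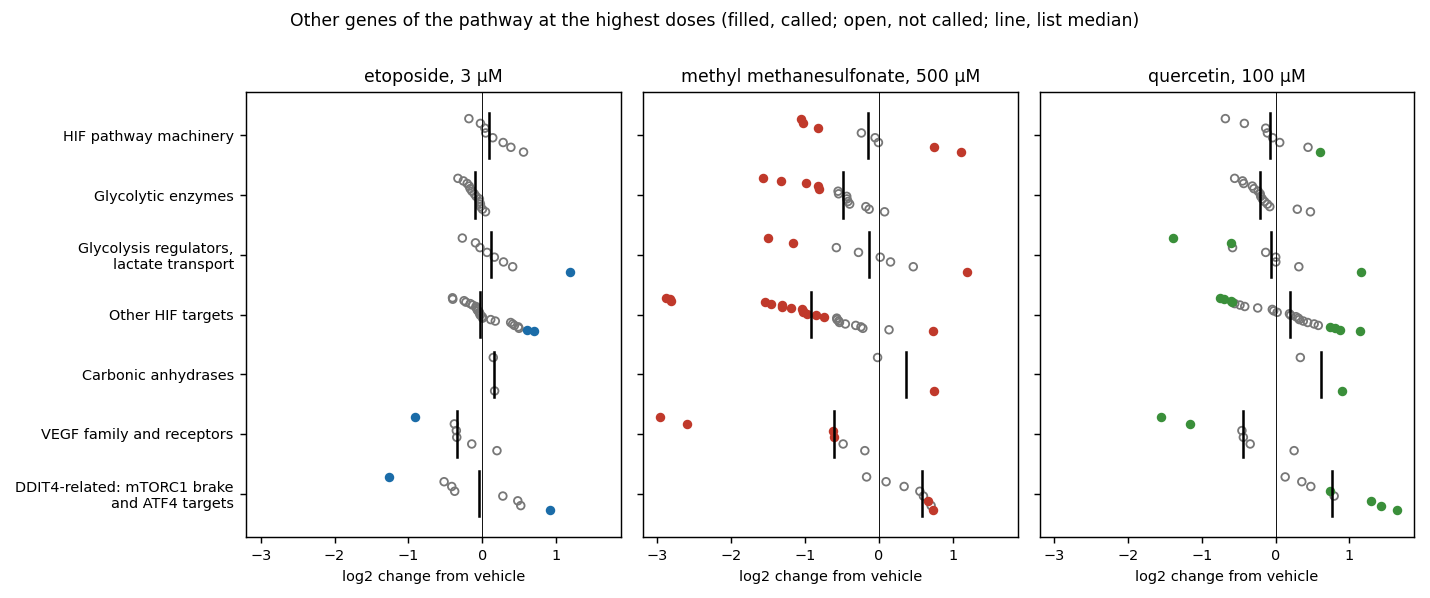
Log2 change from vehicle (horizontal axis) of each tested gene of the 7 pathway lists at the highest dose of etoposide, MMS and quercetin, with called genes filled, other genes open and a line at the list median. Under MMS the further HIF targets have 14 called lower and a median of -0.92, and under quercetin the list of DDIT4 relatives has 4 called higher and a median of 0.77.

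The genes whose pattern was most like each member were found by Pearson's r over the 24 group means, centred within each chemical. This is a description: the points share vehicle groups and samples, and the spread of the upper MMS doses weighs heavily in each r. CA12 was most like SYTL2 and GXYLT2 (both 0.974), ALDOC like HCFC1R1 (0.988) and MAP4K3-DT (0.984), and VEGFA like PLAT (0.983) and NFIL3 (0.974). PDK1 was most like PLEKHA2 (0.988) and EGLN1 (0.986), the latter the prolyl hydroxylase that marks HIF for destruction. DDIT4 was most like CTDSP1 and ADAM9 (both 0.987), BNIP3 like LOX (0.986) and SRPX (0.985), and PGK1 like VLDLR (0.990) and COL13A1 (0.989). HK2 (WDFY2 at 0.954, APBB2 at 0.938), SLC2A1 (SAMTOR at 0.955, XPNPEP1 at 0.928) and SLC2A3 (MED28 at 0.922, NAIF1 at 0.879) had lower best values. LOX, VLDLR and EGLN1 are themselves in the lists of HIF targets and HIF machinery.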

How the data were processed

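Cells of the HT-1080 line were profiled on Affymetrix arrays. The authors deposited log2 values, 1 per probe set, made with GCRMA in Partek per the submitters' processing notes; versions and a genome build are not given in the sources used here. GCRMA summaries are relative to the other probes of an array set, and the number of arrays limits precision. Probe sets with a log2 value of at least 4 in at least 5 of 145 arrays were kept (27102 of 54613) and reduced to 12070 genes by the highest mean. Probe sets had 1 symbol (40914), several (864) or none (12835); RefSeq gave the same name for 40858. Arrays sharing group and number were averaged, and no arrays were identical. Doses were compared with the vehicle of their chemical in limma 3.58.1 (R 4.3.3, eBayes with trend) over that chemical's 8 groups, and the doses of a chemical share its vehicle samples. Calls need a Benjamini-Hochberg adjusted p under 0.05 and a 1.5-fold change. On simulated data 70% to 88% of changes of 0.8 and 100% of changes of 2 (log2) were recovered. The simulation gave each sample independent noise, with no shared effect of the replicate number, and changed 100 genes at each size. Recovery in the measured data, where far more genes changed, may differ. Named are all members, CDKN1A, up to 3 called genes of each list at each highest dose with the largest change, and the 2 non-members most like each member; PFKM, and HIF1AN and ATF4 under quercetin, were named after their values were seen. The members and lists were chosen with earlier results of these data known. Numbers pair samples where each dosed sample's deviations correlated over 0.1 with those of the vehicle sample of its number: all etoposide doses, MMS up to 300 µM and quercetin up to 30 µM. Figures were drawn with matplotlib 3.10.9. Alternatives tried were the replicate block, probe sets averaged, quantile normalization, other filters, no trend in eBayes, each dose fitted with its vehicle alone, no fold limit, the arrays numbered 2 kept, arrays marked nf left out, and each sample left out in turn.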

Additional observations from a re-analysis of the deposited data

Results flagged for a closer look

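In 60 groups of samples (10 members, each in the vehicle and highest-dose group of each chemical), 7 held a sample whose gap to the nearest other was large for the range of the group; chance alone gives about 1 in 20 groups. CA12 at 500 µM MMS read 4.28 in number 3, against 3.96 to 4.03 in the others. The quercetin vehicle group held 3 of them: CA12 at 8.32 in number 4 (others 7.68 to 7.85), VEGFA at 11.39 in number 1 (11.78 to 11.86) and BNIP3 at 11.88 in number 3 (12.10 to 12.15). At 100 µM quercetin, number 3 read 10.82 for SLC2A1 (others 9.24 to 9.36) and 10.19 for HK2 (others 9.01 to 9.24), and number 5 read 9.04 for DDIT4 (others 9.48 to 9.62).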

How the results depend on the processing

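Among alternatives other than leaving out 1 sample, 2532 single-gene estimates stayed on their side of the threshold, 35 came to pass it, 21 no longer passed and 2 reversed: with probe sets averaged, HK2 was at 0.12 in etoposide minus quercetin (adjusted p = 0.637) and at 0.17 in MMS minus quercetin (0.423). Without the fold limit, member counts rose to 1 at 0.3, 2 at 1 and 3 at 3 µM etoposide, 3 in the etoposide step, 2 at 100 and 10 at 300 µM MMS, and all genes called to 4997 (etoposide), 7387 (MMS) and 6089 (quercetin) at the highest doses. With probe sets averaged, 0 members were called at 1 and at 3 µM etoposide, 1 in the quercetin step and 3 in etoposide minus quercetin. With arrays numbered 2 kept the counts were 1 at 30 and 2 at 80 µM quercetin and 0 in etoposide minus quercetin. With the replicate block they were 2 at 3 µM etoposide, 3 at 100 µM MMS and 1 in the quercetin step (SLC2A1); at 500 µM MMS, where the numbers did not pair the samples (lowest correlation -0.01), the block gave 10. The block moved the all-gene count by over 1.5 times at 0.03 µM etoposide (183), 100 µM MMS (295) and 1, 3 and 10 µM quercetin (18, 31 and 333), and changed no other member call against vehicle; in both differences with quercetin it added SLC2A3. Without arrays marked nf, the quercetin step had 1. Without quercetin number 3, an alternative chosen after seeing the data, it had 1 (PDK1, with SLC2A1 at 0.38, under the fold limit) and etoposide minus quercetin had 3. Leaving out 1 sample at a time, members called ranged from 1 to 2 at 3 µM etoposide, 1 to 2 at 100, 4 to 5 at 300 and 9 to 10 at 500 µM MMS, 2 to 3 at 30 and 3 to 4 at 80 and 100 µM quercetin, 6 to 7 and 0 to 2 in the MMS and quercetin steps, and 7 to 8, 3 to 5 and 9 to 10 in the differences of etoposide and MMS, etoposide and quercetin, and MMS and quercetin. Quantile normalization moved the median of all genes by at most 0.02. Arrays hold no read depth; CA12 at 500 µM MMS lies at the filter level.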
